A study of Mus musculus with 2 samples.

Results

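The genes described here are 10 cytokine and receptor genes of stromal cells: Il6, Il11, Lif, Il6st, Osmr, Il33, Il34, Csf1, Tslp and Il1rl1. They were taken by gene name, with earlier results of these data known, and each matched 1 of the 28692 features in the gene list of both libraries. Their transcripts were counted by droplet single cell RNA-seq in mesenchymal stromal cells of intestinal grafts, 1 library from grafted large intestine (LI) and 1 from grafted small intestine (SI). The donor intestine came from embryonic mice of the strain EYFP (C57BL/6), whose cells carry a yellow fluorescent protein. It had stayed 4 weeks under the kidney capsule of an adult wild type (WT) host, in both groups. The sorted cells were live, carried YFP and Itgb1, and lacked the markers of haematopoietic (CD45, Ter119), endothelial (CD31), epithelial (EpCAM), glial (L1CAM) and BP3 positive cells. The LI library held cells of pooled colonic grafts, and whether the SI library was pooled is not given in the sources used here. With 1 library per group no test between LI and SI was possible, so differences are given as values with 95% intervals that cover counting error only.

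Cytokines of the IL-6 family bind a receptor chain of their own and signal through the shared chain gp130, the product of Il6st, to JAK kinases and the transcription factor STAT3. Alarmins such as IL-33 and TSLP are released by barrier and stromal cells and act on innate lymphoid cells, mast cells, regulatory T cells and dendritic cells, with ST2 (Il1rl1) as the receptor of IL-33. CSF1 and IL-34 are the ligands of CSF1R and maintain macrophages. In the gut, fibroblasts and pericytes are known sources of many of these factors.

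The LI library had 11568 cell barcodes with 63348069 unique molecular identifiers (UMIs, counted transcripts) and the SI library had 9631 barcodes with 54918006 UMIs, and 26 barcode sequences occurred in both. Barcodes under 500 detected genes or with over 10% of UMIs from mitochondrial genes were dropped, which left 9873 LI cells with a median of 5288 UMIs and 7910 SI cells with a median of 5682 UMIs. Cells were placed in classes by the number of marker genes detected, and none of the 10 genes was a marker. Fibroblasts (FB) were 7517 LI and 5389 SI cells, divided into PDGFRAhi FB (606 and 377 cells), Fgfr2 FB (1102 and 751), CD81 FB (995 and 1475), Pi16 FB (574 and 280) and other FB (4240 and 2506). The remaining classes were pericytes (803 and 1076 cells), mural cells that met the pericyte and the smooth muscle gate (138 and 438), smooth muscle cells (SMC, 429 and 472) and interstitial cells of Cajal (ICC, 390 and 77). These classes are ranges of a marker count, not clusters: the share of cells exactly at the gate minimum was 85.5% in LI and 85.0% in SI Pi16 FB, 82.0% and 70.6% in CD81 FB, and 79.9% and 77.0% in Fgfr2 FB. It was 43.7% and 34.2% in PDGFRAhi FB and 41.2% and 37.6% in pericytes. A UMI of the fibroblast markers Pdgfra, Lum or Dpt was found in 52.7% of LI and 40.1% of SI pericytes and in 42.0% and 32.4% of mural cells. It was also found in 78.8% and 76.7% of SMC, and 70.5% and 63.6% of ICC. Levels without those cells are therefore given for pericytes, and for some genes in the other classes. Levels are in CPM, the pooled UMIs of a gene scaled to 1000000 UMIs of its class, and the levels of the 10 genes are not ranked against each other.

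Il6 (ENSMUSG00000025746, chr5:30013114-30019981), the ligand that gives the family its name, was highest in Pi16 FB, pericytes and mural cells and lowest in PDGFRAhi FB and ICC. In the LI graft it reached 158 CPM in Pi16 FB, 135 in mural cells, 115 in pericytes and 104 in CD81 FB, and the counting intervals of these neighbours in the order overlapped. It then stood at 78.2 CPM in other FB, 42.0 in Fgfr2 FB, 36.7 in SMC, 23.6 in PDGFRAhi FB and 19.2 in ICC. Without the cells that held a fibroblast marker, LI mural cells had 186 CPM, LI SMC 59.9 and LI ICC (115 cells) 0. In the SI graft mural cells (159 CPM), pericytes (156) and Pi16 FB (148) could not be separated either, and PDGFRAhi FB held 7.73 CPM. The gap between Pi16 FB and the remaining fibroblasts was 1.10 on the log2 scale in LI (95% interval 0.99 to 1.21) and 0.68 in SI (0.53 to 0.83). PDGFRAhi FB were below the remaining fibroblasts by 1.86 on the log2 scale in LI and by 3.58 in SI. After each cell was thinned to 2000 UMIs, so that depth was equal, 16.7% of LI and 19.4% of SI Pi16 FB held an Il6 UMI. The same share was 0.800% in LI ICC (0.165 to 2.32) and 0 of 73 cells in SI ICC, where the interval reached 4.93%.

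Il11 (ENSMUSG00000004371, chr7:4772373-4782859), a ligand that signals through its own receptor chain and gp130 and is known for its part in fibrosis, was higher in LI than in SI in the pooled fibroblasts and pericytes. Its LI levels ran from 177 CPM in pericytes and 70.9 in CD81 FB down to 11.2 in mural cells and 4.81 in ICC. In the SI graft no class exceeded 11.4 CPM, and the intervals of all neighbours in the order overlapped. With the cells that held a fibroblast marker left out, pericytes had 73.3 CPM in LI and 9.60 in SI, and mural cells 0 and 15.75. Lif (ENSMUSG00000034394, chr11:4257557-4272514), whose product holds several kinds of stem cell in an undifferentiated state, was sparse. Its highest LI levels were 20.8 CPM in pericytes, or 8.77 (14 UMIs) without the cells that held a fibroblast marker, and 14.1 in Pi16 FB, and its highest SI level was 3.05 CPM in Pi16 FB, from 8 UMIs. Lif was counted in no UMI of the 77 SI ICC, which allows a level of up to 8.97 CPM.

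These 3 genes are the ligands of the IL-6 family in the set and differ in how they vary between the libraries, so the 250 bases before a transcription start of each are printed here, 5′ to 3′ on the gene's strand, from the RefSeq promoter table of build GRCm38.p6. The windows are chr5:30012864-30013113 (plus strand) for Il6, chr7:4778142-4778391 (minus strand, at a start inside the gene) for Il11 and chr11:4257318-4257567 (plus strand) for Lif. Capitals mark exact matches to the AP-1 motif TGANTCA or, nearest the start of Il6, to the NF-kB motif GGGANTTTC.

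Il6: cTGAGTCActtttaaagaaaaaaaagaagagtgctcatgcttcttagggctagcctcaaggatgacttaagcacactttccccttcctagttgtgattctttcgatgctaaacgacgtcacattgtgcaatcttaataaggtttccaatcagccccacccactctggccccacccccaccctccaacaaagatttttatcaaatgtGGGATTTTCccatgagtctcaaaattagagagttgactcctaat
Il11: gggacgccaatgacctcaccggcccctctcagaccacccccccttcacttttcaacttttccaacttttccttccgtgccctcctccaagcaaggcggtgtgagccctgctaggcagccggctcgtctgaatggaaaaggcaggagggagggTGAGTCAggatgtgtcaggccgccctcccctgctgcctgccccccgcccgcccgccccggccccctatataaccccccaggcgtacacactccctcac
Lif: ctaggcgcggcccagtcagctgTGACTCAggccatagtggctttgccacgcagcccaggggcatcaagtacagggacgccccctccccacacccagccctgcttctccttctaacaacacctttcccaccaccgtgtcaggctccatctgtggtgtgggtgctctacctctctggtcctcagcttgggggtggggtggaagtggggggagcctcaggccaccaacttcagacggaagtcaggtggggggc

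The AP-1 letters lay 249 bases before the start in Il6 (TGAGTCA), 98 before in Il11 (TGAGTCA) and 228 before in Lif (TGACTCA). The NF-kB letters lay 44 bases before the start of Il6. Windows from 250 bases before to 50 after a start were searched on both strands for these motifs, the CRE motif TGACGTCA, the STAT motif TTCNNNGAA and the ISRE motif GAAANNGAA. The other Il11 window, at the annotated gene start (chr7:4782858-4783107 for its 250 bases), held no match and is not printed. Of 32851 such windows of all genes, 7.81% held the AP-1 letters, 1.79% CRE, 1.11% NF-kB, 8.30% STAT and 8.56% ISRE. In 11 windows of 8 of the 10 genes, 5 held a match: besides those printed, Osmr had AP-1 letters and Csf1 NF-kB letters. No match overlapped another, and a match describes letters in the window, not a bound site.

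The shared and the oncostatin M specific receptor chains varied little. Il6st (ENSMUSG00000021756, chr13:112464070-112510086), which codes for gp130, was highest in mural cells in both libraries (203 CPM in LI, 177 in SI) and lowest in ICC (97.3 and 85.1). Pericytes followed with 166 CPM in LI and 177 in SI. Osmr (ENSMUSG00000022146, chr15:6813577-6874969), the chain that pairs with gp130 to bind oncostatin M, was highest in pericytes, at 97.1 CPM in LI and 81.9 in SI. Its lowest levels were 51.2 CPM in LI SMC and 34.0 in SI ICC, the latter from 14 UMIs. Highest and lowest class thus differed by 2.08 times for Il6st in both libraries, and by 1.90 times in LI and 2.41 times in SI for Osmr.

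Il33 (ENSMUSG00000024810, chr19:29925114-29960718), an alarmin stored in the nucleus and released on damage, was the clearest marker of Pi16 FB among the 10 genes. It reached 787 CPM there in LI (764 to 810) and 379 in SI (356 to 403). The next classes were other FB with 298 CPM in LI and CD81 FB with 200 in SI, and no interval overlapped that of Pi16 FB. Thinned shares of positive Pi16 FB were 52.5% in LI and 45.5% in SI. Pi16 FB were the deepest fibroblast class, with a median of 8307.5 UMIs in LI and 9352 in SI. Other FB had 4873 and 4940.5, and the part of depth in the Il33 levels was not tested. PDGFRAhi FB were at the other end, with 83.8 CPM in LI and 13.9 in SI, and thinned shares of 3.53% and 0.820%. Immune-gated cells, which should hold little Il33, had 13.4% positive of 67 thinned cells in LI and 23.3% of 60 in SI, and 53 of the 80 LI and 55 of the 68 SI cells in that gate also held a UMI of a fibroblast marker. In pericytes without such a UMI the share was 0.845% of 355 cells in LI and 0.676% of 592 in SI.

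Tslp (ENSMUSG00000024379, chr18:32815383-32819797), a cytokine that acts on dendritic cells, had a different order. Fgfr2 FB led in LI with 42.3 CPM, ahead of PDGFRAhi FB with 28.0, and Pi16 FB were last with 9.91. In SI pericytes led with 30.2 CPM and mural cells followed with 25.2, while Pi16 FB were again last with 6.11. Pi16 FB lay below the remaining fibroblasts by 1.18 on the log2 scale in LI and by 1.14 in SI, the opposite side from Il33. Il1rl1 (ENSMUSG00000026069, chr1:40429570-40465415), the IL-33 receptor gene, was rare in stroma. It reached 14.8 CPM in LI PDGFRAhi FB (54 UMIs), and 9.27 in SI PDGFRAhi FB (24 UMIs). LI SMC stood at 14.5 CPM, with no Il1rl1 UMI in the 91 of them without a fibroblast marker. Of the 34 Il1rl1 UMIs of all SI fibroblasts, 24 were in the 377 PDGFRAhi FB. PDGFRAhi FB, first in the order for Il1rl1, were thus among the lowest classes for Il33 in both libraries.

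The ligands of CSF1R had separate patterns. Csf1 (ENSMUSG00000014599, chr3:107741048-107760469) was highest in PDGFRAhi FB, at 109 CPM in LI (98.1 to 120) and 164 in SI (148 to 180). In LI the next classes, SMC with 102 CPM, Fgfr2 FB with 100.4 and Pi16 FB with 99.5, were within counting error of it, whereas in SI the next class, Fgfr2 FB, had 90.5 CPM. In SMC without a fibroblast marker Csf1 was 73.0 CPM in LI and 88.7 in SI. Il34 (ENSMUSG00000031750, chr8:110741829-110805924) was confined to 3 classes at 10 CPM or more in LI, namely mural cells (83.1), pericytes (63.6) and PDGFRAhi FB (15.4). In SI PDGFRAhi FB (124 CPM) and pericytes (124) shared the top and mural cells had 94.0. All remaining SI classes lay between 7.43 and 18.9 CPM. Il34 in PDGFRAhi FB was thus 8.08 times as high in SI as in LI, and the thinned share of positive cells was 19.7% against 2.52%. The class also differed between the libraries in other genes: the Fgfr2 FB marker list summed to 10530 CPM in LI and 4211 in SI PDGFRAhi FB and the dissociation response list to 27170 and 13110, while its own marker list summed to 1529 and 1672. The part of these differences in the Il34 result was not tested.

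**Figure D1:**
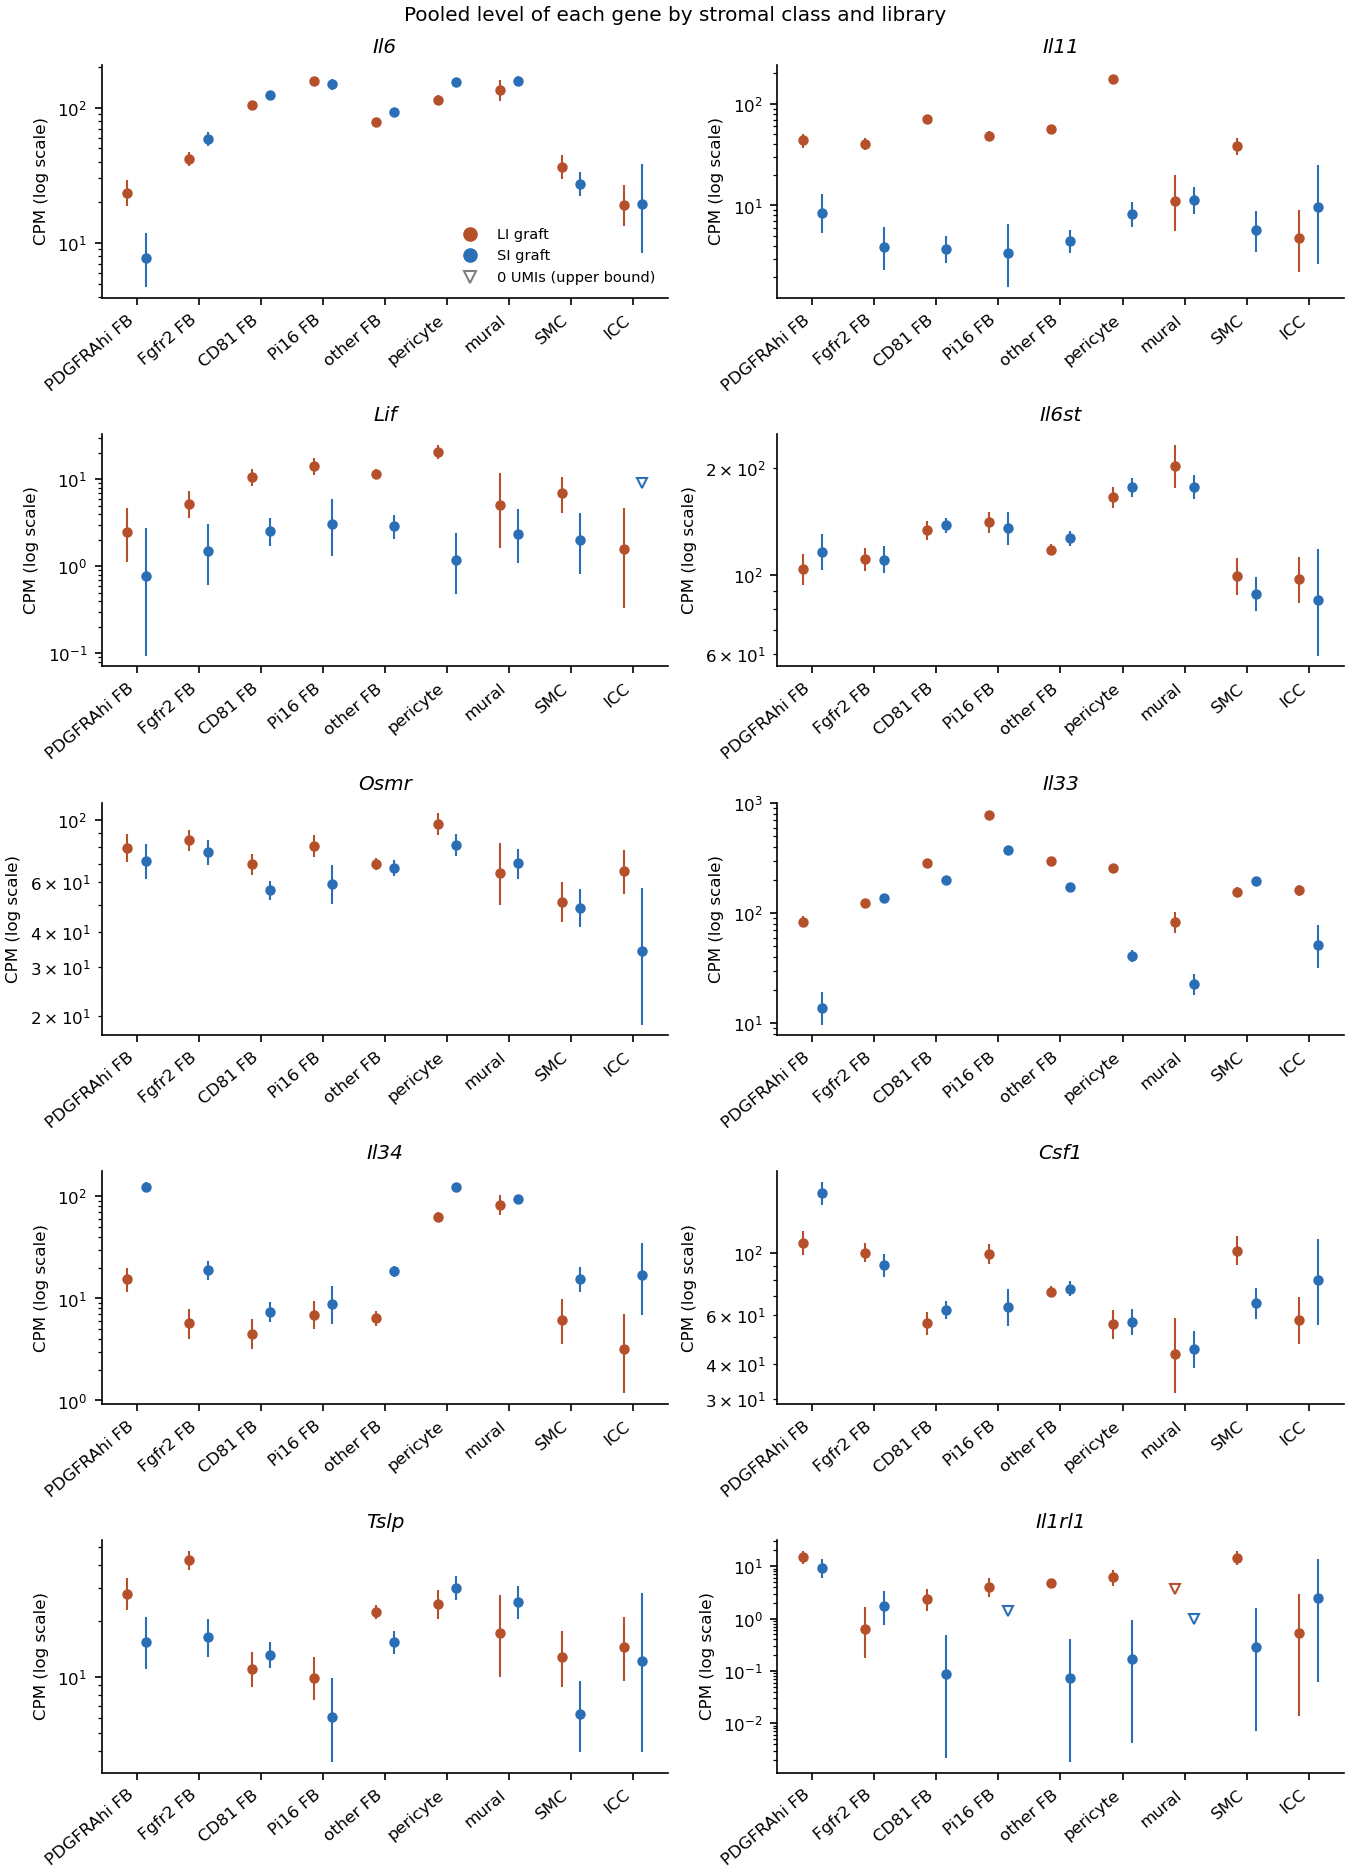
Pooled level of each gene (CPM, log axis) in 9 stromal classes, LI graft in brown and SI graft in blue; bars are exact Poisson 95% intervals and open triangles mark the upper bound where no UMI was counted. Il33 peaks in Pi16 FB (787 CPM in LI, 379 in SI), Il34 in SI stands at 124 CPM in PDGFRAhi FB, and Il11 is low in every SI class.

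Pericytes without any UMI of Pdgfra, Lum or Dpt (380 LI and 644 SI cells) differed from the whole gate in most of the genes. Il6 was higher in these cells than in the whole gate, at 152 CPM in LI and 220 in SI. Il34 was higher as well, at 145 CPM in LI and 191 in SI, as were Il6st (217 and 212) and Osmr (117 and 101). Tslp stood at 27.6 CPM in LI and 35.4 in SI, and Csf1 at 38.8 and 49.3. Lif was 8.77 and 0.993 CPM (14 and 3 UMIs), and Il1rl1 had 1 UMI in LI and 0 in SI. Il33 stood at 6.89 CPM in LI (11 UMIs) and 6.29 in SI (19 UMIs), although the whole pericyte gate held 256 and 41.0. Il11 stood at 73.3 CPM in LI and 9.60 in SI, against 224 and 6.90 in pericytes with a marker UMI. Of the 117 Il11 UMIs behind the LI value, 59 were in 26 male cells (sex is called from Xist and Y-linked transcripts). In the female marker-free pericytes Il11 was 16.8 CPM in LI and 14.9 in SI, a log2 ratio of 0.16 (-0.76 to 1.10). Mixed droplets and cells between the classes cannot be told apart here.

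**Figure D2:**
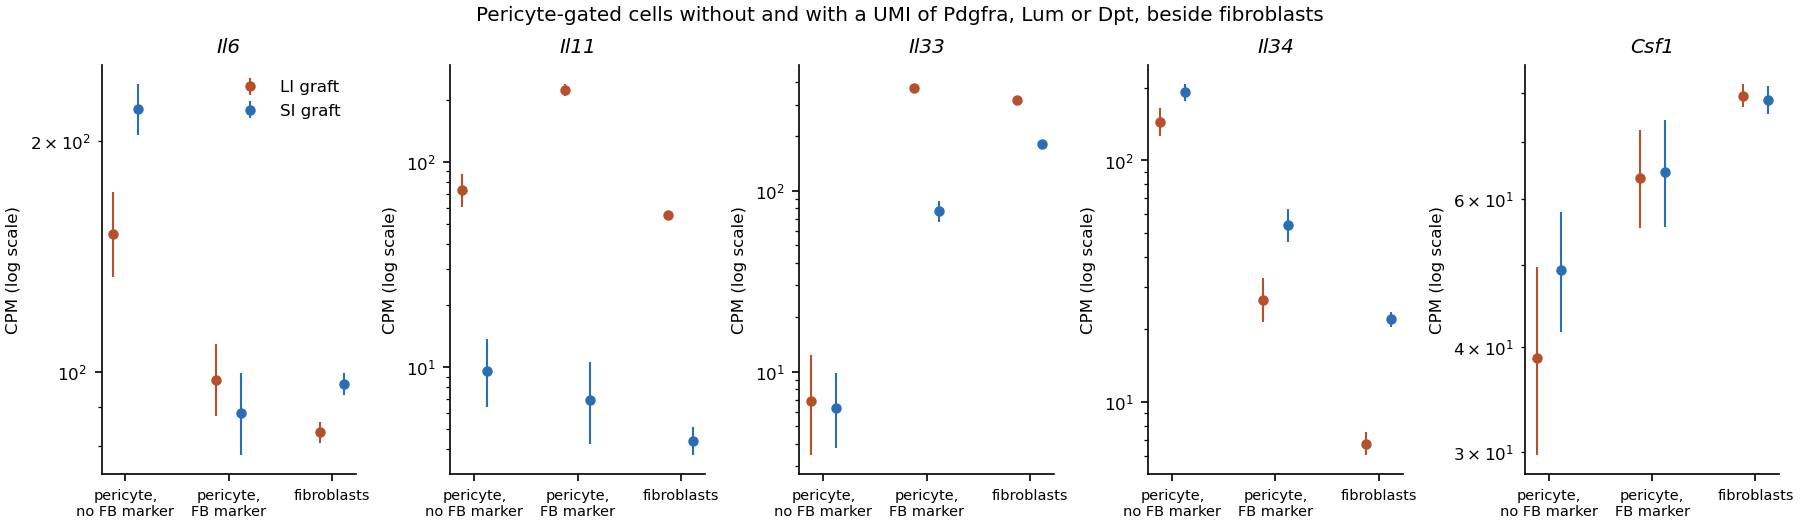
Level (CPM, log axis) of 5 genes in pericytes without and with a UMI of a fibroblast marker (FB marker) and in all fibroblasts, LI in brown and SI in blue, with exact Poisson 95% intervals. Il33 lies below 7 CPM in marker-free pericytes of both libraries, and Il34 and Il6 are highest there.

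The highest class was the same in both libraries for 5 of the 10 genes, Il6st, Osmr, Il33, Csf1 and Il1rl1. Of these, Il33 was the gene whose leading class was clear of the next by its counting interval in both libraries. The leading class overlapped with the next in LI only for Csf1, and in both libraries for Il6st, Osmr, Il1rl1, Il6, Lif and Il34. Il34 led in mural cells and pericytes in LI and in PDGFRAhi FB and pericytes in SI. When pericytes, mural cells, SMC and ICC with a fibroblast marker were left out, pericytes led for Il34 in both libraries (145 and 191 CPM). Tslp led in Fgfr2 FB in LI and in pericytes in SI, and for Il11 the SI order was not resolved.

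Position along the gut is what the design compares, and fibroblasts of the 2 libraries differed most in Il11. Il11 stood at 55.1 CPM in LI (53.0 to 57.3) and 4.39 in SI (3.72 to 5.14), a log2 ratio of 3.38 (3.19 to 3.58) with 1 CPM added to each level. Lif was 10.2 CPM in LI and 2.45 in SI, a log2 ratio of 1.69. Il34 went the other way, with 6.75 CPM in LI and 22.0 in SI and a log2 ratio of -1.57 (-1.74 to -1.40). Il33 was 316 CPM in LI and 180 in SI (0.81), and Tslp was 22.0 and 14.1 (0.61). The remaining levels were close. Il6 was 83.4 CPM in LI and 96.4 in SI (-0.21), Osmr 73.9 and 64.7 (0.19), Il6st 121 and 128 (-0.08) and Csf1 79.5 and 78.5 (0.02). Il1rl1, at 4.52 and 0.968 CPM, did not reach the minimum of 10 CPM in either library.

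At that minimum 2 of 9 genes were at least 2-fold higher in LI, where 1.85% of all 8606 genes were, and 1 of 9 was at least 2-fold higher in SI, where 1.64% of all genes were. All 3 reached the minimum in 1 library only, so the counts describe these genes and support nothing further. The median log2 ratio of all genes was -0.003, and that of the 9 genes was 0.19. In PDGFRAhi FB 3 of 9 genes (Il6, Il11 and Il33) were past 2-fold in LI (3.60% of all genes) and 1 (Il34) in SI (3.95%). In Pi16 FB 3 of 7 genes (Il11, Lif and Il33) were past 2-fold in LI (3.84% of all genes) and none in SI (2.33%). Il6 and Il11 in PDGFRAhi FB, and Il11 and Lif in Pi16 FB, reached the minimum in LI only. These counts therefore support nothing further either. Both Il11 calls were lost in female cells alone (sexes are defined with the sex split). In female PDGFRAhi FB Il11 was 21.3 CPM in LI and 11.5 in SI (log2 0.83, 0.08 to 1.63), and 87 of the 159 LI UMIs were in 30 male cells, 73 of them in a single cell. In female Pi16 FB it was 9.35 CPM in LI and 5.39 in SI (log2 0.69, -0.41 to 1.89), and 157 of the 277 LI UMIs were in 77 male cells. Kits of 3′ and of 5′ chemistry are named without saying which library each made, so kit, library and position along the gut cannot be told apart.

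For Il33 the pooled share of positive cells was close in both libraries while the UMIs per positive cell differed. At 2000 UMIs a cell, 22.7% of LI and 22.1% of SI fibroblasts held Il33. The pooled shares joined subsets that differed in both directions, with 31.4% in LI and 24.5% in SI CD81 FB but 13.0% and 20.1% in Fgfr2 FB. Positive LI cells held a mean of 1.83 Il33 UMIs with a maximum of 27, and positive SI cells 1.44 with a maximum of 8. At least 10 Il33 UMIs were found in 16 thinned LI fibroblasts and in 0 of the 5068 SI ones. Before thinning, 641 LI fibroblasts with 5 or more Il33 UMIs held 71.9% of all Il33 UMIs, against 45.8% in 355 SI cells. When the 8% of cells with the most UMIs were left out, the log2 ratio of Il33 was 0.08, and when every cell counted equally it was 0.38. Il11 had such cells too: 99 LI fibroblasts held 72.0% of its UMIs, and a single cell held 179. The thinned share of Il11 positive fibroblasts nevertheless was 3.25% in LI (2.85 to 3.69) and 0.710% in SI (0.498 to 0.982). For Csf1 both the shares (13.4% and 13.6%) and the UMIs per positive cell (1.17 and 1.14) were close.

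**Figure D3:**
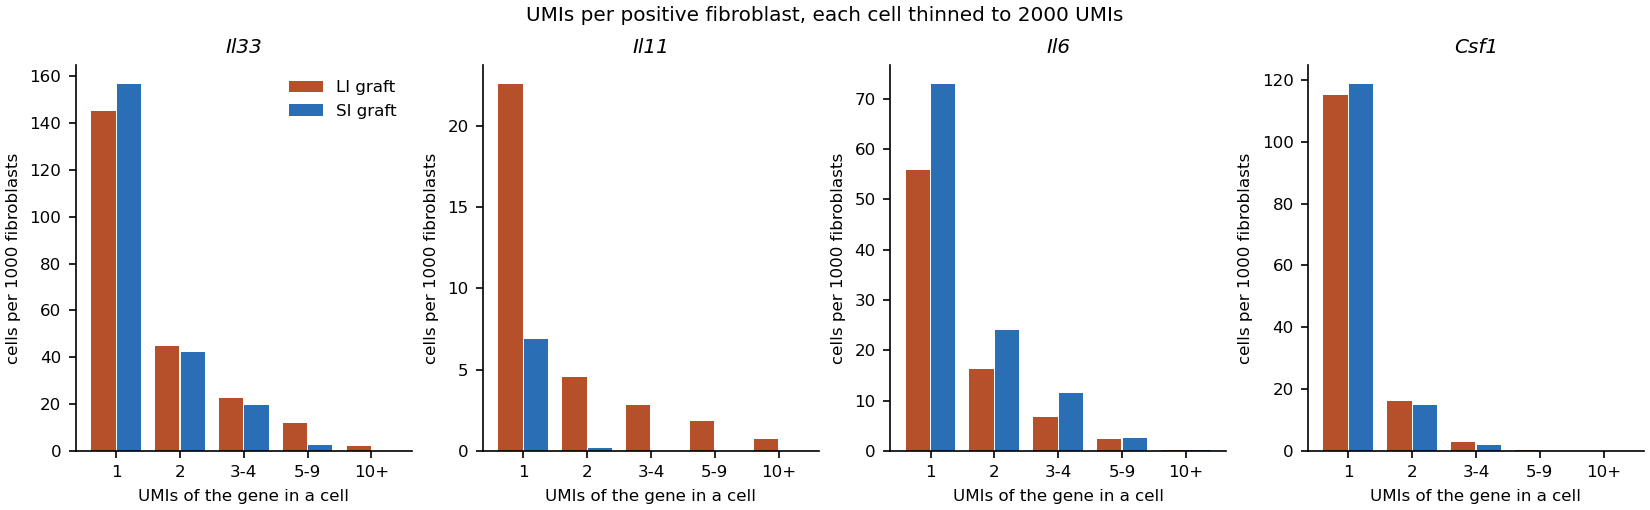
Fibroblasts by the number of UMIs of a gene they held after thinning to 2000 UMIs, as cells per 1000 fibroblasts, for Il33, Il11, Il6 and Csf1, LI in brown and SI in blue. Cells with 10 or more Il33 UMIs are all from LI (16 cells), at 5 to 9 UMIs there are 85 LI and 12 SI cells, and a single SI cell holds 2 or more Il11 UMIs.

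Cells of both sexes were present in both libraries, so each held cells of more than 1 animal, and sex gave a split within a library. Female cells (an Xist UMI and none of Ddx3y, Eif2s3y, Kdm5d and Uty) were 6229 of the LI and 3147 of the SI fibroblasts, and male cells (the reverse) were 641 and 1259. Sex and animal cannot be told apart, and the sex of the hosts is not given in the sources used here. Cells called male were deeper, with a median of 8983 UMIs in LI and 8000 in SI against 5258 and 5443 in cells called female. A call needs a detected UMI, and 8.61% of LI and 18.2% of SI fibroblasts stayed unclear. The part of this rule in the depth difference was not tested. Subset gates count markers detected before thinning, and the part of depth in subset shares by sex was not tested either.

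Il11 was higher in male than in female LI fibroblasts. Male cells held 1306 of the 2622 Il11 UMIs of LI fibroblasts and female cells 673, and the rest were in cells of unclear sex. The level in male cells was 212 CPM (201 to 224) against 18.1 in female LI cells (16.8 to 19.5), whereas in SI it was 4.56 in male and 3.79 in female cells. The thinned share of Il11 positive cells was 13.8% in male and 1.43% in female LI fibroblasts. The log2 difference was 3.48, and 3.27 without the cell of 179 UMIs. It had the same sign in each LI fibroblast subset, from 2.71 in CD81 FB to 5.56 in Fgfr2 FB. Without the cell with the most UMIs it was 2.28 in CD81 FB, 4.27 in Fgfr2 FB (29 male cells) and, in PDGFRAhi FB (30 male cells), 1.73 in place of 4.26. The LI over SI log2 ratio of Il11 within male cells was 5.26 (4.91 to 5.61), and within female cells its interval was 1.70 to 2.29.

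Lif and Il33 were on the same side in LI. Lif was 24.8 CPM in male and 6.56 in female LI fibroblasts, and 2.23 and 2.06 in SI. Within LI Pi16 FB, Lif was 15.4 CPM in male and 14.6 in female cells, and within LI PDGFRAhi FB 9.80 (2 UMIs) and 2.13. Il33 was 483 and 268 CPM in LI and 188 and 181 in SI, with thinned shares of 39.2% and 19.9% in LI and 21.3% and 22.5% in SI. Tslp went against these genes, at 7.46 CPM in male and 25.1 in female LI fibroblasts and 13.0 and 14.8 in SI. Its LI over SI log2 ratio therefore had opposite signs, 0.72 in female cells and -0.73 in male cells. Il34 kept its sign in both sexes (-1.36 and -2.26). Over all fibroblasts Il6 was higher in male cells by 0.51 on the log2 scale in LI and 0.54 in SI. The mix of subsets differed with sex: in LI, CD81 FB were 28.4% of male and 11.1% of female fibroblasts, and Fgfr2 FB 4.52% and 16.4%. Within LI subsets the Il6 difference was 0.03 in CD81 FB, -0.18 in Pi16 FB, 0.57 in other FB, 0.47 in Fgfr2 FB (-0.58 to 1.37) and 1.35 in PDGFRAhi FB (0.36 to 2.22, from 12 male UMIs). In SI it was 0.33, 0.34, 0.82, 0.18 and, in PDGFRAhi FB, -1.34 (-2.95 to 0.47). Among MHC class II negative cells it was 0.07 (-0.13 to 0.26) in LI and 0.51 in SI. Within each sex the libraries differed by less than counting error (-0.04 and -0.07).

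**Figure D4:**
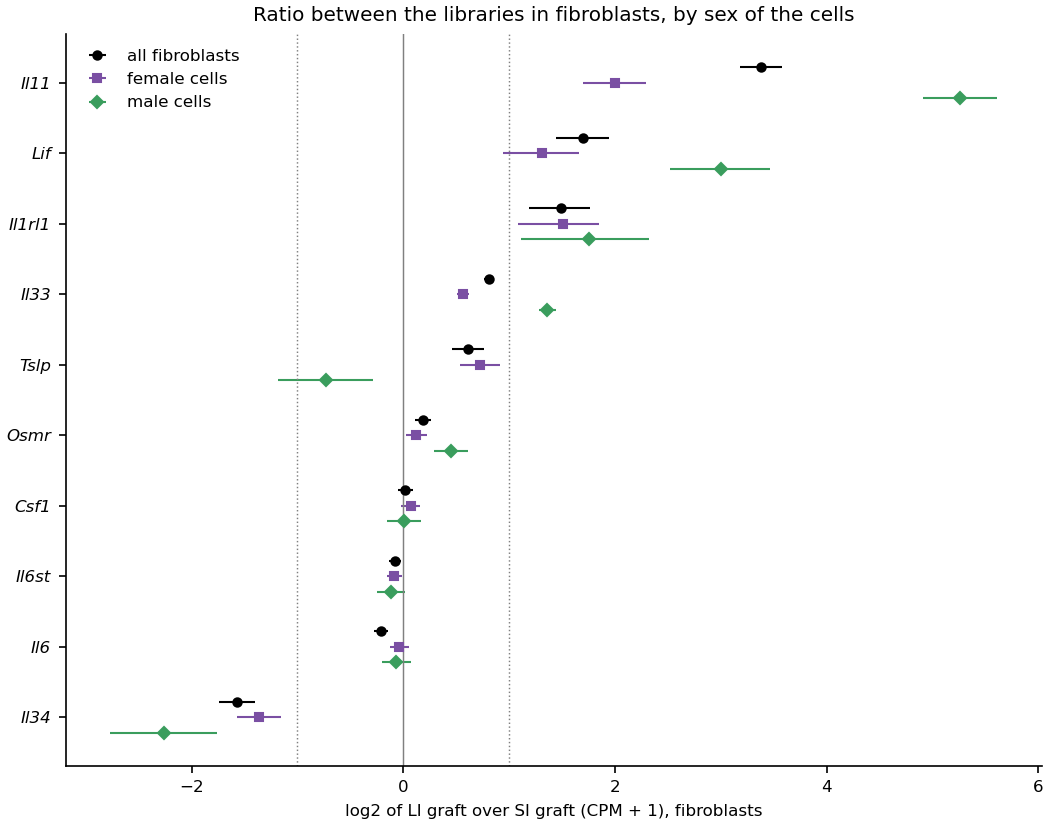
Log2 of the LI over the SI level in fibroblasts, with 1 CPM added, for all cells (black circles), female cells (purple squares) and male cells (green diamonds), with exact binomial 95% intervals and dotted lines at 2-fold. Il11 is higher in LI in both sexes, with 5.26 in male cells, and Tslp is the gene whose female and male values fall on opposite sides of 0 with both intervals clear of it.

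Male fibroblasts were also more often positive for MHC class II genes, the antigen presentation genes that interferon gamma induces. Positive cells (at least 3 of Cd74, H2-Aa, H2-Ab1 and H2-Eb1) were 45.6% of male and 3.29% of female LI fibroblasts, and 27.2% and 4.73% in SI. Il33 was higher in MHC class II positive cells of both sexes and libraries. Among male cells it was 607 against 344 CPM in LI and 265 against 150 in SI, log2 differences of 0.82 and 0.81. Among female cells it was 545 against 254 CPM in LI and 220 against 178 in SI. Il11 differed between the sexes among MHC class II negative LI cells as well, with 166 CPM in male and 13.0 in female cells, a log2 difference of 3.58. Among male LI cells the Il11 level was 253 CPM in MHC class II positive and 166 in negative cells (log2 0.61, and 0.26 without the cell with the most UMIs), while the thinned share was 12.1% and 15.3%. Among female LI cells the Il11 level was 122 CPM in positive and 13.0 in negative cells (log2 3.13, and 2.42 without the cell with the most UMIs), with thinned shares of 4.93% and 1.30%. Lif was lower in positive than in negative male LI cells, at 17.9 against 32.6 CPM, and higher in positive than in negative female LI cells, at 17.1 against 6.04 CPM. The female Lif difference was 1.37 on the log2 scale, and 0.63 (-0.08 to 1.28) without the cell with the most UMIs. The MHC class II state moved with sex and depth, and their parts in these differences were not tested.

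**Figure D5:**
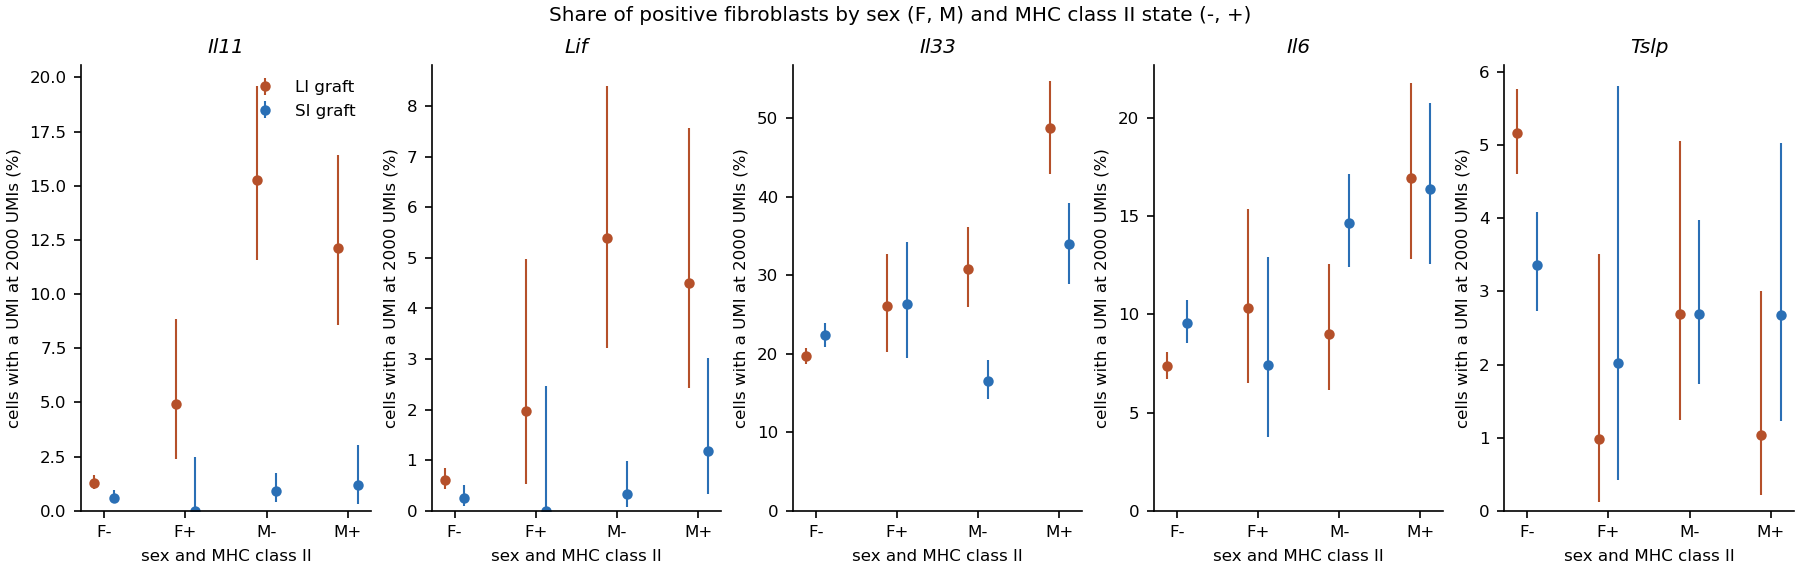
Share of fibroblasts with a UMI of Il11, Lif, Il33, Il6 or Tslp after thinning to 2000 UMIs, by sex (F female, M male) and MHC class II state (- negative, + positive), LI in brown and SI in blue, with exact Clopper-Pearson 95% intervals. Male LI cells have Il11 shares of 15.3% and 12.1% without and with MHC class II, and no SI group exceeds 1.19% for Il11.

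Genes of the set were found together in single LI fibroblasts. At 2000 UMIs, 19.5% of the 87 Lif positive cells also held Il11 (11.8 to 29.4), against 3.05% of the Lif negative cells. Among Il6 positive LI cells 38.7% held Il33, against 21.3% of the rest, and 3.99% held Lif, against 0.984%. In SI the Il33 shares were 24.8% and 21.8%, with overlapping intervals, and the Lif shares were 0.355% and 0.377%. None of the 19 Lif positive SI cells held Il11, where the interval reached 17.6%. In LI 2.99% of Il33 positive cells held Tslp, against 5.02% of the rest, while in SI the shares were 3.30% and 3.04%. In SI Csf1 positive fibroblasts held Il34 in 6.84% (5.07 to 8.99), against 3.22% of Csf1 negative cells, and in LI the shares were 1.58% and 1.16%, with overlapping intervals. Such shares follow the mix of subsets, sexes and animals in a library and were not tested.

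The patterns over 9 classes in both libraries, 18 profiles in all, were compared with those of 10709 genes by Pearson r, as a description over profiles that share 2 libraries. Il34 was most like Sema4c (0.96), Plekha2 (0.93) and Nrm (0.93). For Il33 the nearest genes were Plod2 (0.92), Flrt2 (0.90) and Serpinf1 (0.89). Il6 was nearest to Abhd11os (0.92), Eif1 (0.91) and the chemokine gene Cxcl1 (0.91). Lif was nearest to the ribosomal protein genes Fau (0.93), Rpl37a (0.91) and Rps25 (0.91). Il11 was nearest to Gm26532 (0.88), Ero1l (0.86) and Cstb (0.84), and Il6st to Pcdh19 (0.91), Cpeb1 (0.90) and Isg15 (0.89). Csf1 was nearest to Fzd2 (0.87), Sec24d (0.85) and Gadd45a (0.84). Osmr was nearest to Dnaja1, Sesn2 and Tmem9b (0.84 to 0.85), Tslp to Topors, Top1 and Srsf2 (0.86 to 0.87) and Il1rl1 to Cxcl14, Ttc39c and Sox4 (0.79 to 0.85).

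The partners of these genes in fibroblasts were given by lists. Of 8 further IL-6 family ligands and soluble partners, 0 reached 10 CPM. Among them were the cardiotrophin gene Ctf1, with 9.69 CPM in LI and 7.86 in SI, and Clcf1 (6.77 and 3.96). Osm, the gene of the Osmr ligand oncostatin M and named after its values were seen, had 0.0631 and 0.199 CPM. Of 6 receptors 4 reached 10 CPM and 0 were past 2-fold, among them the IL-11 receptor gene Il11ra1 (230 CPM in LI, 220 in SI), Lifr (24.0 and 26.8) and Il6ra (24.5 and 26.4). Of 13 JAK-STAT3 signalling and feedback genes, Cebpd among them not analysed here, 11 reached 10 CPM. Among them were Junb (3829 CPM in LI, 3932 in SI), the feedback inhibitor Socs3 (1250 and 1321) and Cebpb (748 and 599.7).

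Of 16 other alarmin and IL-1 family genes 8 reached 10 CPM. The IL-1 ligand Il1b was past 2-fold, at 12.4 CPM in SI and a log2 ratio of -1.16, and the receptor genes Il1r1 (99.9 and 83.3) and Crlf2, a chain of the TSLP receptor (69.2 and 54.1), and the adaptor Myd88 (61.5 and 72.0) also reached it. Of 6 genes of the CSF axis, Sdc1, a syndecan that binds IL-34, reached it (68.6 and 39.4), while below it stood Csf3 (4.33 and 0.256) and the receptor gene Csf1r (2.14 and 0.740). Of 8 other stromal cytokine genes 4 reached it with 0 past 2-fold, among them Kitl (56.7 and 92.6), Tgfb1 (77.8 and 43.5) and Tnfsf13b (13.0 and 22.2). All 11 genes of a dissociation response list reached it with 0 past 2-fold, among them Fos (6678 and 6582), Jun (5871 and 4840) and Junb. The part of dissociation in the levels of Il6 and Lif was not tested.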

How the data were processed

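The 10x Genomics libraries were processed by the authors with Cell Ranger 3.1.0 on mm10, and per the file headers and values the deposited matrices hold UMI counts per gene and barcode, not normalized. The submitters' processing notes also name Seurat 3, and no cell annotation was used here. Sums were taken over barcodes that had 500 or more genes and no more than 10% of UMIs from mitochondrial genes, in classes gated on detected markers. Cells that met gates of different lineages were set aside, except pericyte with SMC, and no doublet caller was run. CPM was computed per class with exact Poisson intervals. Shares had Clopper-Pearson intervals on cells thinned to 2000 UMIs, and log2 ratios used 1 CPM as pseudocount with exact binomial intervals at 95%. UMIs cluster in cells, so these intervals are too narrow. A gene counted where it had 10 CPM in either library and was called at 2-fold. The tools were edgeR 4.0.16 in R 4.3.3 (TMM factors only), pandas 2.3.3, scipy 1.17.1 and numpy 2.4.6 in Python 3.11.15, and the ratio code was tested on simulated data. All 10 genes were named. Of each list, genes past 2-fold and up to 3 of the highest were named, and for each of the 10 genes the 3 nearest in pattern. Genes, lists and gates were chosen with earlier results of these data known. Cebpd was not analysed here, and some genes of the lists that met this rule are not reported here. Gene positions are from GENCODE vM21 (GRCm38).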

Additional observations from a re-analysis of the deposited data

Results flagged for a closer look

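Of 150 contrasts of a gene between groups of fibroblasts within a library, 15 per gene, 7 had opposite signs in the LI and the SI graft with both counting intervals clear of 0. The differences between the libraries were not tested. Il11 in PDGFRAhi FB against the remaining fibroblasts stood at -0.35 on the log2 scale in LI and 0.91 in SI, the latter from 22 UMIs. Lif in MHC class II positive against negative male fibroblasts stood at -0.83 in LI and 0.91 in SI, where 13 and 11 UMIs were counted. Without 1 cell of 2 UMIs the SI value was 0.73 (-0.19 to 1.58). Il33 in CD81 FB against the remaining fibroblasts was -0.16 in LI and 0.23 in SI. Among MHC class II negative fibroblasts, Il33 in male against female cells was 0.44 in LI and -0.25 in SI, and Il34 was -0.71 in LI and 0.29 in SI. Csf1 in Pi16 FB against the remaining fibroblasts was 0.37 in LI and -0.31 in SI. Il1rl1 in MHC class II positive against negative fibroblasts was 1.55 in LI and -1.11 in SI. The LI value was 0.88 without a cell of 32 UMIs, and in SI no UMI was counted in the positive cells, so that the SI value depends on the pseudocount.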

How the results depend on the processing

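Of 120 log2 ratios of the 10 genes in fibroblasts recomputed over 12 settings, 113 kept their direction and their side of 2-fold, and 32 lay outside the counting interval of the reported value. The median over the genes at the minimum level, 0.19 as reported, was 0.077 under a filter of 1000 or more genes and no more than 5% mitochondrial UMIs, 0.005 without the 8% of cells with the most UMIs and 0.076 with the mean of per-cell CPM. It was 0.399 with no minimum level and 0.006 in male cells only, a setting chosen after the data were seen. The median share of positive cells, 5.09% as reported, was 2.66% at 1000 UMIs and 12.27% without thinning. Lif fell below the minimum level in 5 settings, and with male cells alone Il33 was past 2-fold (1.36) and Tslp was lower in LI (-0.73). The number of genes higher in LI ranged from 4 to 7 and the number with the same highest class from 4 to 7 where 7 to 9 classes were compared. It was 8 in male cells only, where 4 classes were compared. The cause was not tested. Intervals cover counting error, and 1 library per group gives no spread between animals. No paired analysis was possible because each group had 1 library and no test was run.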
